A study of Mus musculus with 12 samples.

Results

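The nuclear-encoded subunits of the respiratory chain and ATP synthase were followed in RNA-seq libraries of mouse thymus and NPM-ALK lymphoma. Protein-coding genes were taken as members by their symbols, which begin with Ndufa, Ndufb, Ndufc, Ndufs or Ndufv and a digit, are Sdha, Sdhb, Sdhc or Sdhd, or begin with Uqcr, Cox4 to Cox8 or Atp5. The rule used no measured value and gave 84 of the 50600 gene IDs counted, with 37 in complex I, 4 in complex II, 8 in complex III, 18 in complex IV and 17 in complex V. Members were placed in complexes by their symbols alone, which need not match the enzyme a protein belongs to. Of these, 80 passed the filter on low counts and were tested among 16052 genes in all.

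Groups of 3 mice on a mixed C57Bl/6 and SV/129 background were sequenced with poly(A)-selected RNA. Ctrl mice carried loxP-flanked Dnmt1 alleles (DNMT1 fl/fl) and no Cre recombinase. KO mice had the same alleles and Cre under Cd4 control (DNMT1 fl/fl CD4-CRE), which deletes the maintenance DNA methyltransferase Dnmt1 in T cells from the double-positive thymocyte stage on. ALK mice carried the human NPM-ALK fusion oncogene under a Cd4 enhancer and promoter, and their T cell lymphomas were sampled. ALKKO mice carried NPM-ALK together with the deletion, and their thymocytes were sampled. Ctrl mice were 20 to 25 wk old, KO mice 20 to 21 wk, ALK mice 22 to 31 wk and ALKKO mice 19 to 25 wk. All mice were male except KO replicate 2. RNA was prepared from homogenized tissue, so other cells of the thymus and its surroundings entered the libraries. In such bulk samples fewer cells of a type and less RNA per cell cannot be told apart.

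Complexes I to IV pass electrons from NADH and succinate to oxygen. Of these, complexes I, III and IV also pump protons across the inner mitochondrial membrane, and complex V uses the gradient to make ATP. Most subunits are encoded in the nucleus, a core set is encoded by mitochondrial DNA, and complex II is built from nuclear genes alone. Several subunits of complex IV have paralogs with restricted expression, such as the heart and skeletal muscle forms Cox6a2, Cox7a1 and Cox8b, of which Cox7a1 and Cox8b are also made in brown fat.

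Between 12473857 and 18864327 reads were counted on genes per library, and the 84 members took 0.715% to 1.18% of them. Levels are given as CPM, read counts scaled to library size after TMM correction for library composition. The targeted genes followed the labels: Dnmt1 lay at 400 to 487 CPM in Ctrl, 206 to 244 in KO, 205 to 244 in ALKKO and 379 to 788 in ALK, and Alk was at 34.9 to 55.0 CPM in ALK and ALKKO and at most 0.431 CPM in the other groups. Libraries of KO stood apart by markers of other tissues. The sum of 12 heart muscle markers was 7078 CPM in KO replicate 3 and 8.11 to 40.3 CPM in the other 11 libraries, and KO replicate 2 held the highest sum of 5 B cell markers, 5132 CPM, and 2668 CPM of 8 double-positive thymocyte markers where the other thymus libraries held 6407 to 8569. Markers of brown and white fat (Ucp1, Cidea, Adipoq, Fabp4, Plin1) were found in all 9 thymus libraries at very unequal levels, with sums of 459 to 1818 CPM in Ctrl, 81.6 to 2672 in KO and 84.1 to 1534 in ALKKO. In ALK the same sums were 20.7 to 166 CPM, and Adipoq and Plin1 were at 0 in ALK replicate 3. The thymocyte marker Rag1 was listed at 0 in every library.

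Members were not all equally countable. Cox4i1, the ubiquitous form of subunit 4 of cytochrome c oxidase, and Ndufa13 of complex I were listed at 0 in all 12 libraries, and nothing can be said of their levels. Cox7b2 and Cox8c, both known from testis, had at most 3 counts in any library, the floor used here, which equals 0.159 to 0.241 CPM. Reads that aligned to several places, 39.2% to 51.8% of the reads listed, were left out of every gene's count. Of all stretches of 50 bases in their exons, Atp5o shared 41.6% with other genes, Atp5g2 38.3%, Ndufb6 31.6% and Uqcrb 25.5%, so that the levels of these members are uncertain.

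Per kilobase of exon, the levels of tested members in Ctrl spread from 0.724 CPM per kb for Cox4i2, a paralog known from lung, to 325 CPM per kb for Atp5a1, the alpha subunit of the ATP synthase head. The next highest mean levels were those of Atp5b, the catalytic beta subunit, at 301 CPM per kb, and of the cytochrome c oxidase subunits Cox6b1 and Cox6a1 at 260 and 258. The median was 45.1 CPM per kb over the members of complex I, 79.8 over complex II, 82.8 over complex III, 48.9 over complex IV and 59.1 over complex V. Neighbors in this order were not tested against each other.

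The levels of the subunits differed most between mice of the same group, above all within KO and ALKKO. The 8 subunits of complex III summed to 911, 1125 and 1092 CPM in the 3 Ctrl libraries, 733, 1450 and 1349 in KO, 708, 1141 and 866 in ALKKO and 1155, 1151 and 1027 in ALK. The 18 subunits of complex IV summed to 962, 1126 and 1118 CPM in Ctrl, 740, 1483 and 1317 in KO, 747, 1157 and 883 in ALKKO and 1270, 1087 and 1044 in ALK. The highest of the 9 thymus sums was 2.05 times the lowest for complex III, 2.01 times for complex IV, 1.93 times for complex II, 1.71 times for complex I and 1.69 times for complex V. The group means of complex III were 1043 ± 115 CPM (SD, n = 3) in Ctrl, 1177 ± 388 in KO, 905 ± 219 in ALKKO and 1111 ± 72.5 in ALK, and the sums were not tested.

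**Figure D1:**
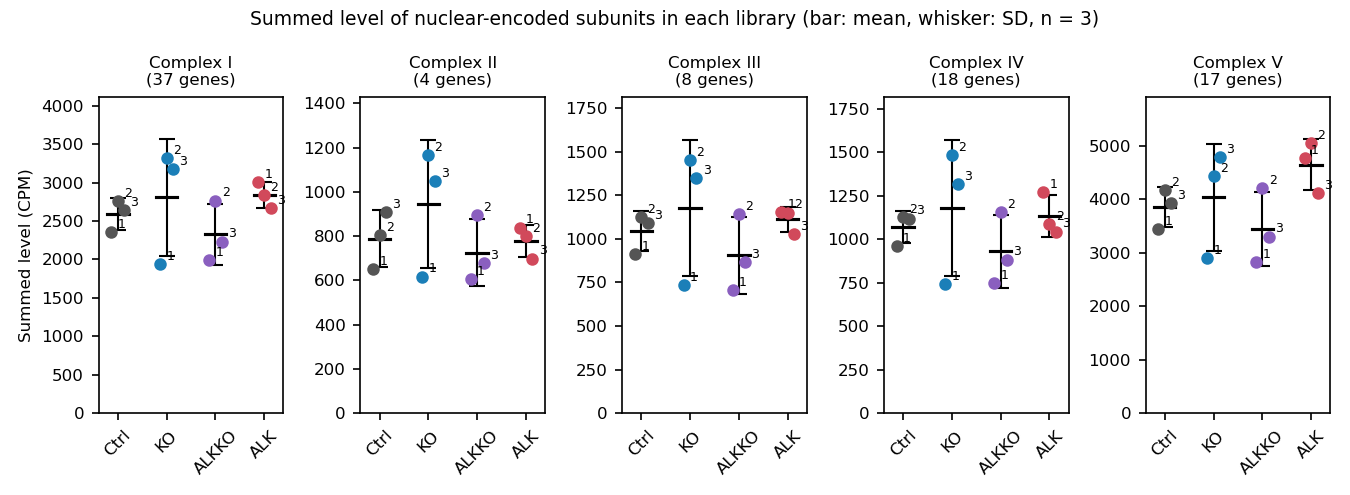
Summed level in CPM (y axis, from 0) of the member genes of each complex in every library, by group (x axis). Points are libraries with their replicate numbers, bars the mean and whiskers the SD of 3 mice. KO replicates 2 and 3 lie highest among the thymus libraries in all 5 complexes, KO replicate 1 and ALKKO replicate 1 lie lowest, and in complex V the 3 ALK libraries reach 4120 to 5061 CPM.

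The subunits moved together across these thymus libraries. Of the 80 tested members, 61 (76.3%) had their lowest thymus level in KO replicate 1 or ALKKO replicate 1 and their highest in KO replicate 2 or 3, which was so for 11.9% of all tested genes. This pattern was chosen after the values were seen, and is given as a description. The 8 tested members of complex III all showed it, as did 28 of 36 in complex I, 3 of 4 in complex II, 12 of 15 in complex IV and 10 of 17 in complex V. Relative to the mean of the 9 thymus libraries, the median member lay at -0.37 (log2) in KO replicate 1 and -0.35 in ALKKO replicate 1, and at 0.37 and 0.27 in KO replicates 2 and 3, while the median of all tested genes lay between -0.02 and 0.00 in these 9 libraries. The 3 Ctrl libraries were at -0.06, 0.14 and 0.06, and ALKKO replicates 2 and 3 at 0.13 and -0.17. Per member, the highest of the 9 thymus levels was 1.85 times the lowest at the median, and over all tested genes 2.07 times. The members stood out by the shared order of the libraries. The width of their range was not compared with that of genes of like level.

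**Figure D2:**
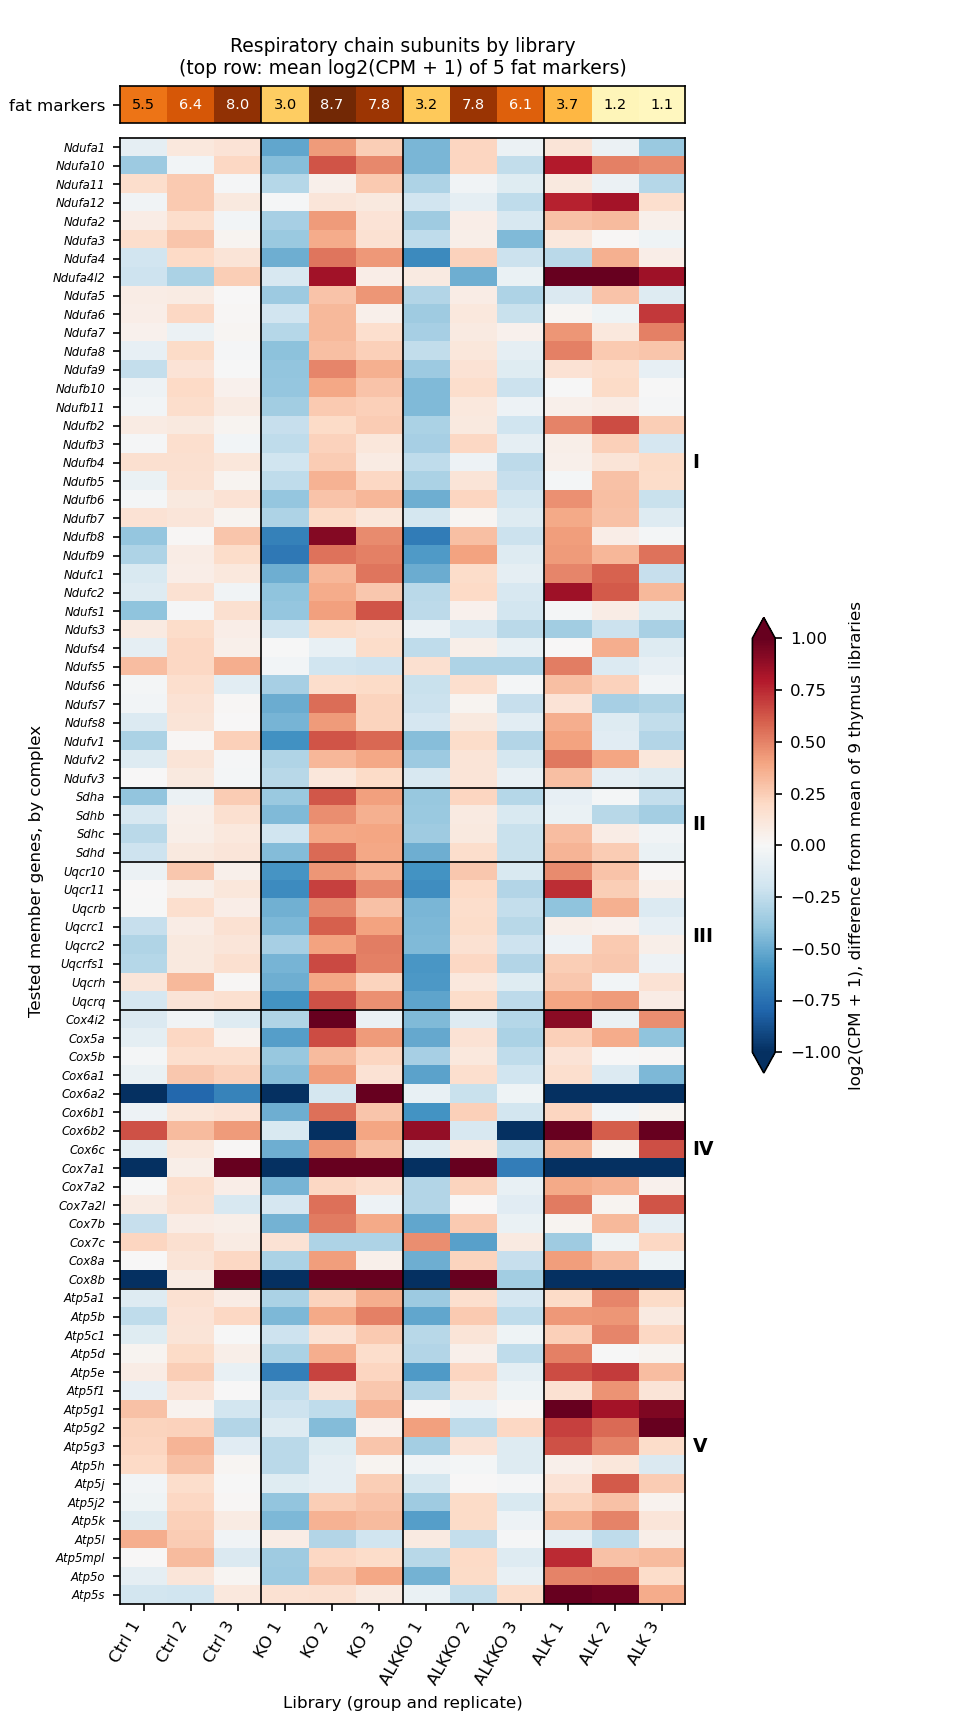
Level of the tested members (rows, grouped by complex, 1 of the 80 not shown) in the 12 libraries (columns), as the difference of log2(CPM + 1) from the mean of the 9 thymus libraries, with colors ending at -1 and 1. The top row gives the mean log2(CPM + 1) of 5 fat markers. KO replicate 1 and ALKKO replicate 1 are blue and KO replicates 2 and 3 red in nearly all rows, and their fat markers are at 3.04 and 3.18 against 8.70 and 7.80.

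Core enzymes varied among the thymus libraries in this manner, though Sdha was lowest in Ctrl replicate 1 by a small margin. Sdha, the flavoprotein of succinate dehydrogenase, was at 283, 356 and 443 CPM in Ctrl, 287, 572 and 495 in KO, 285, 430 and 304 in ALKKO and 351, 366 and 315 in ALK. Ndufv1, the NADH-binding subunit of complex I, was at 111, 138 and 163 CPM in Ctrl, 90.3, 213 and 206 in KO, 102, 157 and 112 in ALKKO and 182, 127 and 112 in ALK. Uqcrfs1, the Rieske iron-sulfur protein of complex III, was at 96.9, 127 and 132 CPM in Ctrl, 85.4, 187 and 168 in KO, 78.6, 136 and 96.4 in ALKKO and 140, 143 and 114 in ALK. In each of the 3 genes the ALK libraries lay inside the range of the thymus libraries. Cox5a, a nuclear-encoded subunit of cytochrome c oxidase, ranged from 67.0 to 156 CPM over the thymus libraries and from 74.3 to 128 in ALK. Atp5b ranged from 862 to 1753 CPM and from 1319 to 1685.

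The fat markers were lowest in the same libraries, KO replicate 1 and ALKKO replicate 1, and highest in KO replicate 2, while Ctrl replicate 3 and ALKKO replicate 2 lay above KO replicate 3. Their mean log2(CPM + 1) was 3.04 in KO replicate 1 and 3.18 in ALKKO replicate 1, 5.5 to 8.04 in Ctrl, 7.84 and 6.09 in ALKKO replicates 2 and 3, and 8.70 and 7.80 in KO replicates 2 and 3. Ucp1, the uncoupling protein of brown fat, was at 1.38 CPM in KO replicate 1 and 663 in KO replicate 2. In ALK the mean was 3.70, 1.21 and 1.05, with member sums of 11042, 10931 and 9560 CPM, while the thymus libraries with the lowest fat markers, KO replicate 1 and ALKKO replicate 1, had member sums of 6931 and 6878. The 12 heart markers were high in KO replicate 3 alone and the B cell markers in KO replicate 2, and Ctrl replicate 3 and ALKKO replicate 2, with 22.3 and 40.3 CPM of heart markers, had member sums of 9705 and 10165 CPM. The part of fat or heart tissue in the levels of the members was not tested.

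**Figure D3:**
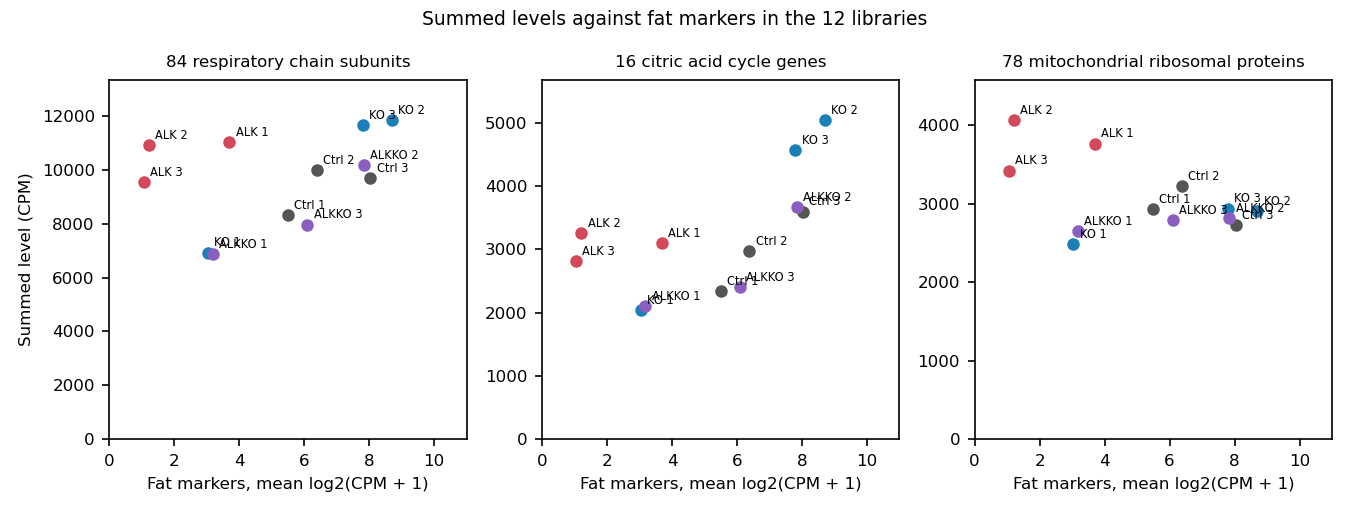
Summed level in CPM (y axis, from 0) of the 84 members, of 16 citric acid cycle genes and of 78 mitochondrial ribosomal proteins against the mean log2(CPM + 1) of 5 fat markers (x axis) in the 12 libraries, colored by group. Among the 9 thymus libraries the member sums run from 6878 to 11859 CPM with the fat markers, and the 3 ALK libraries, at fat markers of 1.05 to 3.70, hold 9560 to 11042 CPM.

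Neighboring pathways did not all share this order. Genes of the citric acid cycle, 16 in all, summed to 2040 CPM in KO replicate 1 and 5047 in KO replicate 2. The 13 subunits encoded by mitochondrial DNA, of which 7 had more than 3 counts in some library, summed to 10366 and 32602 CPM in these libraries. The 78 mitochondrial ribosomal proteins, which serve the synthesis of the subunits encoded by mitochondrial DNA, shared the low end of this order but not the high end. Their lowest thymus sums were 2488 CPM in KO replicate 1 and 2651 in ALKKO replicate 1. The highest was 3228 CPM in Ctrl replicate 2, with 2902 and 2937 in KO replicates 2 and 3. In ALK they lay between 3421 and 4068 CPM.

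Paralogs of complex IV known from muscle and brown fat varied most. Cox7a1 was at 1.69, 8.74 and 18.7 CPM in Ctrl, 0.477, 49.6 and 52.0 in KO, 1.39, 18.3 and 4.79 in ALKKO and 3.49, 1.48 and 1.09 in ALK. Cox8b was at 3.80, 14.2 and 38.5 CPM in Ctrl, 1.48, 77.8 and 52.2 in KO, 1.57, 29.3 and 10.3 in ALKKO and 2.42, 0.0873 and 0.0782 in ALK, where the last values stand for 1 read each. Every ALK library lay below every Ctrl library for Cox8b, but not for Cox7a1. Neither passed the test in ALK against Ctrl, with log2 fold changes of -4.39 ± 1.67 (SE; adjusted p = 0.0708) for Cox8b and -2.25 ± 1.39 (adjusted p = 0.243) for Cox7a1. Weighed per exon length, Cox7a1 made up 1.13% to 44.5% of the sum of Cox7a1 and its ubiquitous partner Cox7a2 in the thymus libraries and 1.82% to 4.44% in ALK. Cox8b made up 2.87% to 48.1% of the sum with Cox8a in the thymus libraries, and 2.79%, 0.112% and 0.128% in ALK. Cox6a2 was at 66.5 CPM in KO replicate 3, the library with the heart markers, and at 0.175 to 2.36 CPM in the other 11 libraries. It was the 1 member that DESeq2 called in KO against Ctrl, and edgeR gave it a log2 fold change of 4.59 with an adjusted p of 0.864.

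**Figure D4:**
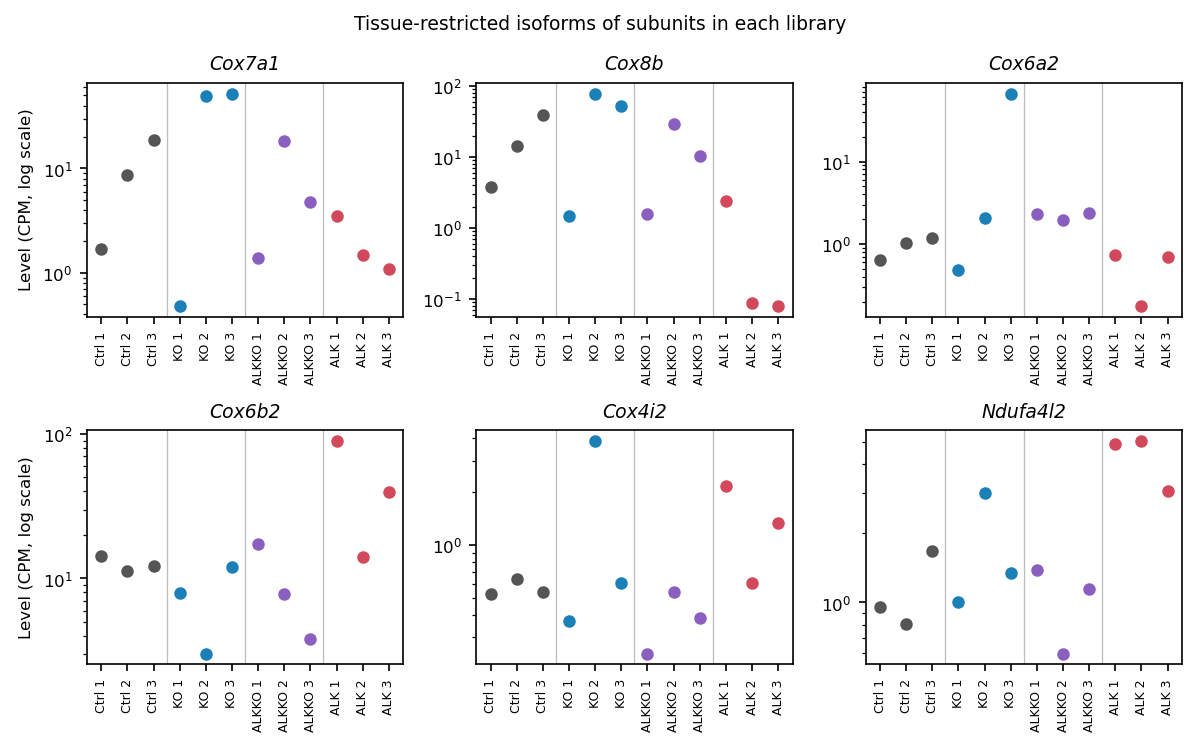
Level in CPM (y axis, log scale) of 6 subunit paralogs with restricted expression in each of the 12 libraries (x axis), colored by group. Cox7a1 and Cox8b reach 52.0 and 77.8 CPM in KO and have minima of 1.09 and 0.0782 in ALK, Cox6a2 is high in KO replicate 3 alone, and Ndufa4l2 is at 3.05 to 5.06 CPM in ALK.

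The promoters of the paralogs differed in CpG content, which is shown since Dnmt1 acts at CpG sites. In the RefSeq promoter windows of GRCm38.p6, 250 bases before to 50 bases after the annotated start, 71 windows belonged to 66 members and held a median of 19 CpG dinucleotides, against 7 in all 32851 windows. The ubiquitous Cox8a (chr19:7217567-7217866, minus strand) held 19, while Cox8b (chr7:140900397-140900696, minus strand) with 2 and Cox7a1 (chr7:30183921-30184220, plus strand) with 7 were the lowest and the third lowest of the member windows. The second lowest was Cox7b, a widely expressed subunit, with 5, so low CpG content was not confined to the restricted paralogs. CpG dinucleotides are in capitals, and methylation was not analysed here.
Cox8a: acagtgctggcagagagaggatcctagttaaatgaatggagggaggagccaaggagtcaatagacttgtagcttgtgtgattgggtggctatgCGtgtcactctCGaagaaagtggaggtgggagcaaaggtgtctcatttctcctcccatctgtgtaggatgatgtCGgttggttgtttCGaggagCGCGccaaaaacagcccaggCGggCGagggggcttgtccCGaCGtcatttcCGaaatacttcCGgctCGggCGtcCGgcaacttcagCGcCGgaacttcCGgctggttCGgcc
Cox8b: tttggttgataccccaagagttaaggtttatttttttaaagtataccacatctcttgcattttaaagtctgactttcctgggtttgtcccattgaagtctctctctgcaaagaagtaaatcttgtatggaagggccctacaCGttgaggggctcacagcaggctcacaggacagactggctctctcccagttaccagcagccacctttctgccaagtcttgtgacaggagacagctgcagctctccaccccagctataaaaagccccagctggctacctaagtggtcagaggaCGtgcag
Cox7a1: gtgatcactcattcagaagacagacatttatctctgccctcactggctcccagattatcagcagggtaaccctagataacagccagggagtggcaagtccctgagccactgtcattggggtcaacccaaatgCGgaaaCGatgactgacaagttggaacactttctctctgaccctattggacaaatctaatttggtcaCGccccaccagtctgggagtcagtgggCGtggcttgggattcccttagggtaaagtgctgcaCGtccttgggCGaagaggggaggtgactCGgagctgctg

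Some windows of members held sequences known to bind activators of respiratory genes. Both strands were searched for GCGCATGC (NRF1), CCGGAAG (ETS factors, among them GABP), AAGATGGC (YY1) and TCAAGGTCA (estrogen-related receptors). NRF1 sequences were in 14.1% of the member windows and 2.71% of all windows, ETS sequences in 22.5% and 8.86%, YY1 sequences in 12.7% and 2.75% and receptor sequences in 2.82% and 0.423%. The E-box CACGTG, bound by MYC among others, was in 8.45% and 7.15%. The NRF1, ETS and E-box sequences contain a CpG, and member windows held more CpG dinucleotides (median 19 against 7 in all windows). Windows of like CpG content were not compared. The windows of Uqcr11 (chr10:80406772-80407071, minus strand), a small subunit of complex III, of Sdhd (chr9:50603800-50604099, minus strand), a membrane anchor of complex II, and of Ndufb8 (chr19:44555393-44555692, minus strand) of complex I are printed as examples of such promoters among the members that moved together, with the matches in capitals. Counted from the first base, Uqcr11 has an ETS match at base 185 and an NRF1 match at base 247, Sdhd an ETS match at base 205 and a receptor match at base 287, and Ndufb8 a YY1 match at base 289. A match is not a measured binding site.
Uqcr11: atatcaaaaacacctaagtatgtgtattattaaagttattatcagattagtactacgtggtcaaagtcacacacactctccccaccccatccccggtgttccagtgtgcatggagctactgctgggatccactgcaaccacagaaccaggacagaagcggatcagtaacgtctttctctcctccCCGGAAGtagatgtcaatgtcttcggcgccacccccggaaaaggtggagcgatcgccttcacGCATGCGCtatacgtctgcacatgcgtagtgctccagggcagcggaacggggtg
Sdhd: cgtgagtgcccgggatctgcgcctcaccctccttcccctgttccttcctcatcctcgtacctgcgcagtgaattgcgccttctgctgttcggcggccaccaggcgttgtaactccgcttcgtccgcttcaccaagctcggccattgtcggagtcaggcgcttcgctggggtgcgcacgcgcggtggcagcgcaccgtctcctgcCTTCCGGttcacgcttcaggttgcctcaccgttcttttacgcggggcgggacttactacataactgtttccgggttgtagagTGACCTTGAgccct
Ndufb8: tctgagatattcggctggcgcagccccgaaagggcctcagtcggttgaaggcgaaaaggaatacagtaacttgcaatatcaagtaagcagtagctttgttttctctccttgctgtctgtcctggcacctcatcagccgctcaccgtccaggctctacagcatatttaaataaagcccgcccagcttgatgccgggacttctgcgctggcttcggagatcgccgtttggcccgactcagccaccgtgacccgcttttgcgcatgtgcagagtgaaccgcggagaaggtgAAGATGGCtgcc

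To ask whether the lymphomas express the respiratory chain at another level than control thymus, ALK was compared with Ctrl. Only 3 of 80 tested members rose (Ndufa4l2, Atp5s and Atp5g1) and 1 fell (Ndufs3) at an adjusted p under 0.05 in edgeR, while 14.8% of all tested genes rose and 14.7% fell. The median log2 fold change was 0.13 over the members and 0.05 over all tested genes, and 58 of 80 members lay above 0. At an unadjusted p under 0.05 there were 10 members and 6828 of all tested genes. DESeq2 called 7 members higher and 2 lower, against 18.3% and 19.8% of all tested genes. ALK and Ctrl also differed in cell type markers. The double-positive thymocyte markers summed to 1586 to 3466 CPM in ALK and 7412 to 8569 in Ctrl, and the B cell markers to 25.3 to 128 and 1001 to 1346. The fat markers differed as given above, and a fit with them as covariate follows below. The part of these cell types in the result was not tested. By complex, the median was 0.11 in complex I, 0.04 in complex II, 0.13 in complex III, 0.05 in complex IV and 0.29 in complex V, where 15 of 17 members were above 0. Without overlap between the groups, 14 members lay higher in ALK (17.5%, against 21.3% of all tested genes) and 2 lower, Cox8b and Ndufs3 (2.5%, against 25.1%). The count of members that passed changed with single libraries left out, as did the share of all tested genes. It was 0 without Ctrl replicate 1 or 2, where 16.1% and 18.5% of all tested genes passed. At most it was 7, without KO replicate 1, where 28.3% passed.

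Ndufa4l2, a paralog of Ndufa4 known to be induced by hypoxia, was counted in complex I by its symbol alone, as was Ndufa4. Its level was 4.90, 5.06 and 3.05 CPM in ALK, 0.951, 0.804 and 1.67 in Ctrl, 1.39, 0.598 and 1.15 in ALKKO and 1.01, 3.01 and 1.35 in KO. Each ALK library lay above all thymus libraries, the next being KO replicate 2. The log2 fold change against Ctrl was 1.92 ± 0.54 (SE; adjusted p = 0.0232). Its level stayed low, at 3.96 CPM per kb in ALK against 107 for Ndufa4, which did not pass the test (0.02 ± 0.29, adjusted p = 0.974). Ndufs3, an iron-sulfur arm subunit of complex I, was at 44.7, 49.1 and 45.5 CPM in ALK and 60.9, 65.1 and 59.7 in Ctrl and fell by 0.41 on the log2 scale (SE 0.13, adjusted p = 0.0366). ALKKO, at 54.8, 50.8 and 47.3 CPM, lay between the 2 groups and overlapped with ALK. Ndufs3 shares 17.9% of its stretches of 50 bases with other genes, and its call was lost with any 1 of the Ctrl libraries or ALK replicate 1 or 3 left out. Among the other core subunits, Ndufs1 had a log2 fold change of 0.04 ± 0.24 and Ndufv1 of 0.03 ± 0.32. Ndufa10, after Ndufa4l2 the highest in the complex, had 0.64 ± 0.28 (adjusted p = 0.102), and Ndufa11, after Ndufs3 the lowest, -0.22 ± 0.17.

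No member of complexes II and III passed in edgeR or DESeq2, and 0 had an unadjusted p under 0.05, with fold changes of -0.25 to 0.17 (log2) in complex II and -0.11 to 0.32 in complex III. Sdhb, the iron-sulfur protein of succinate dehydrogenase, had -0.25 ± 0.22, Sdha -0.07 ± 0.26, and the membrane anchors Sdhc and Sdhd 0.15 ± 0.19 and 0.17 ± 0.26. In complex III, Uqcrc1, a core protein, was at 239, 237 and 217 CPM in ALK and 195, 242 and 255 in Ctrl, with a log2 fold change of 0.00 ± 0.25. Uqcr11 and Uqcrq had the highest values, 0.32 ± 0.33 and 0.26 ± 0.29, Uqcrb and Uqcrh the lowest, -0.11 ± 0.30 and -0.02 ± 0.23, and Uqcrfs1 had 0.16 ± 0.29.

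In complex IV, the testis form Cox6b2 was at 89.6, 14.1 and 39.96 CPM in ALK, 14.4, 11.3 and 12.3 in Ctrl, 17.2, 7.83 and 3.83 in ALKKO and 7.90, 3.01 and 12 in KO. ALK replicates 1 and 3 were above all other libraries and ALK replicate 2 was not. The log2 fold change against Ctrl was 1.92 ± 0.72 (adjusted p = 0.0674). Cox6b2 made up 21.9%, 4.98% and 12.5% of the sum with Cox6b1 per exon length in ALK and 3.67% to 5.16% in Ctrl. Cox4i2 was at 2.15, 0.611 and 1.33 CPM in ALK and 0.528, 0.643 and 0.539 in Ctrl (1.26 ± 0.82, adjusted p = 0.269), with the highest level, 3.87 CPM, in KO replicate 2. Of the widely expressed subunits, the log2 fold change was 0.05 ± 0.31 for Cox5a, -0.27 ± 0.25 for Cox6a1, 0.01 ± 0.26 for Cox6b1, 0.19 ± 0.20 for Cox7a2, 0.13 ± 0.27 for Cox7b, 0.13 ± 0.22 for Cox8a and, chosen after its value was seen, 0.35 ± 0.24 for Cox6c. Cox7a2l, which joins complexes III and IV into supercomplexes, had 0.39 ± 0.21 (adjusted p = 0.194).

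Complex V held the other members that rose. Atp5g1, Atp5g2 and Atp5g3 encode the same mature subunit of the c ring behind different import signals. Atp5g1 was at 12.4, 8.47 and 9.15 CPM in ALK, 5.5, 4.45 and 3.67 in Ctrl, 4.36, 4.13 and 4.34 in ALKKO and 3.60, 3.44 and 5.73 in KO, and rose by 1.14 ± 0.33 (log2, SE; adjusted p = 0.0250). Atp5g2, at 17.2, 15.8 and 24.2 CPM in ALK and 12.3, 12.3 and 8.25 in Ctrl, had 0.80 ± 0.30 (adjusted p = 0.0632). Atp5g3 was the main gene of the 3, with 133 CPM per kb in ALK against 2.04 for Atp5g1 and 11.4 for Atp5g2, and had 0.29 ± 0.20 (adjusted p = 0.289). Atp5g1 shares 11.1% of its stretches of 50 bases with other genes, and its level is uncertain. Atp5s, coupling factor B, associated with the enzyme rather than a core subunit, was at 19.6, 16.7 and 10.6 CPM in ALK and 6.92, 6.81 and 8.68 in Ctrl, and rose by 1.07 ± 0.28 (adjusted p = 0.0188). All ALK libraries lay above all 9 thymus libraries for 4 members, Atp5g1, Atp5g2, Atp5s and Ndufa4l2 (5%, against 13.1% of all tested genes), and below them for 0 (against 15.8%). The catalytic head had fold changes of 0.26 ± 0.21 for Atp5a1 and 0.29 ± 0.28 for Atp5b, and Atp5l and Atp5h had the lowest values of the complex, -0.32 ± 0.24 and -0.17 ± 0.12. Atpif1, the inhibitor of the enzyme and no member by its symbol, was at 144, 67.0 and 63.3 CPM in ALK and 77.8, 93.5 and 74.5 in Ctrl (0.16 ± 0.29).

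The lymphomas were then compared with ALKKO thymocytes, which carry the oncogene without Dnmt1. Here 7 of 80 members rose and 0 fell, against 13.4% and 14.7% of all tested genes. At an unadjusted p under 0.05 there were 20 members and 6648 of all tested genes. DESeq2 called 9 members higher and 1 lower, against 17% and 19.5% of all tested genes. The double-positive thymocyte markers summed to 1586 to 3466 CPM in ALK and 6407 to 7609 in ALKKO, and the B cell markers to 25.3 to 128 and 1023 to 2684. The fat markers summed to 20.7 to 166 CPM and 84.1 to 1534, and a fit with them as covariate follows below. The part of these cell types in the result was not tested. The median log2 fold change was 0.31 over the members and 0.03 over all tested genes, with 71 of 80 members above 0. The medians by complex were 0.27, 0.14, 0.33, 0.22 and 0.44 in complexes I to V. Ndufa4l2 had 2.04 ± 0.54 (SE; adjusted p = 0.0192), Atp5g1 1.23 ± 0.33 (adjusted p = 0.0194), Atp5s 1.01 ± 0.28 (adjusted p = 0.0247) and Cox6b2 2.31 ± 0.73 (adjusted p = 0.0382). The other 3 were complex I subunits outside the rule for named genes, chosen after their values were seen. Ndufa12 was at 39.8, 41.6 and 25.8 CPM in ALK and 19.9, 21.5 and 19.1 in ALKKO (0.83 ± 0.20, adjusted p = 0.0120), Ndufc2 at 104, 88.3 and 72.2 and at 47.6, 66.0 and 51.2 (0.68 ± 0.22, adjusted p = 0.0430), and Ndufb2 at 33.1, 36.9 and 27.6 and at 18.4, 24.8 and 20.0 (0.63 ± 0.20, adjusted p = 0.0371). The groups did not overlap for 20 members higher in ALK (25.0%, against 19.5% of all tested genes) and 1 lower, Cox6a2 (1.25%, against 23.7%). Without ALKKO replicate 3, the count of members that passed was 0, where 16.8% of all tested genes passed. This comparison shares the ALK libraries with the one against Ctrl, so the 2 sets of values are not independent.

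In the thymus, KO against Ctrl tests the deletion of Dnmt1, ALKKO against KO the oncogene without Dnmt1, and ALKKO against Ctrl both together. No member passed in edgeR in any of them. In KO against Ctrl 0 of 80 passed, where 0.0187% of all tested genes did, in ALKKO against Ctrl 0 (0.187%) and in ALKKO against KO 0 (0.00623%). At an unadjusted p under 0.05 there were 2, 0 and 2 members, and DESeq2 called 1, 0 and 0, against 0.305%, 0.71% and 0.156% of all tested genes. The median log2 fold change of the members was 0.08 in KO against Ctrl, -0.17 in ALKKO against Ctrl, with 3 of 80 above 0, and -0.25 in ALKKO against KO, with 7 above 0. The size of these medians depended on single libraries. With any 1 library left out, the median in ALKKO against Ctrl stayed between -0.31 and -0.05. In ALKKO against KO it stayed between -0.43 and -0.12. Without KO replicates 2 and 3, which carry the B cell and heart markers, KO was left with replicate 1, the library in which the members were low, with its spread assumed to equal that of the other groups. The median was then -0.46 in KO against Ctrl and 0.28 in ALKKO against KO, which restates the level of this library. With 1 KO library left out at a time, the median in KO against Ctrl was between -0.05 and 0.25. Without ALKKO replicate 1 the median in ALKKO against Ctrl was -0.05. With 3 mice a group an exact permutation test of a single gene cannot go below p = 0.1.

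Since the fat markers were so unequal, the fit was repeated with their mean log2(CPM + 1) as a covariate, an analysis added after the data were seen. These markers ran with the members among the thymus libraries and were low in ALK. A fit with them therefore shifts such members upward in ALK by construction. The counts that follow describe this fit and give no separate evidence of a rise. In ALK against Ctrl 28 of 80 members rose (35%) and 0 fell (59 at an unadjusted p under 0.05), where 8.91% of all tested genes rose and 9.91% fell, and the median of the members was 0.67 against 0.09 over all tested genes. In ALK against ALKKO 48 rose (60%) and 0 fell (65 at an unadjusted p under 0.05), where 9.96% of all tested genes rose and 11.3% fell, and the median was 0.71 against 0.05. The 28 were 11 of 36 in complex I, 2 of 4 in complex II, 5 of 8 in complex III, 5 of 15 in complex IV and 5 of 17 in complex V. Ndufa10 had a log2 fold change of 1.43 (adjusted p = 0.00129), Uqcr11 of 1.22 (adjusted p = 0.00455), Sdhd of 0.88 (adjusted p = 0.0102), Cox6b1 of 0.74 (adjusted p = 0.0149) and Atp5b of 1.01 (adjusted p = 0.0163). Of the members that had passed without the covariate, Ndufa4l2 had 2.40 (adjusted p = 0.0511), Atp5s 1.20 (adjusted p = 0.0549), Atp5g1 1.24 (adjusted p = 0.0745) and Ndufs3 -0.31 (adjusted p = 0.247). Cox8b, which follows the markers, went from -4.39 to 0.07.

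**Figure D5:**
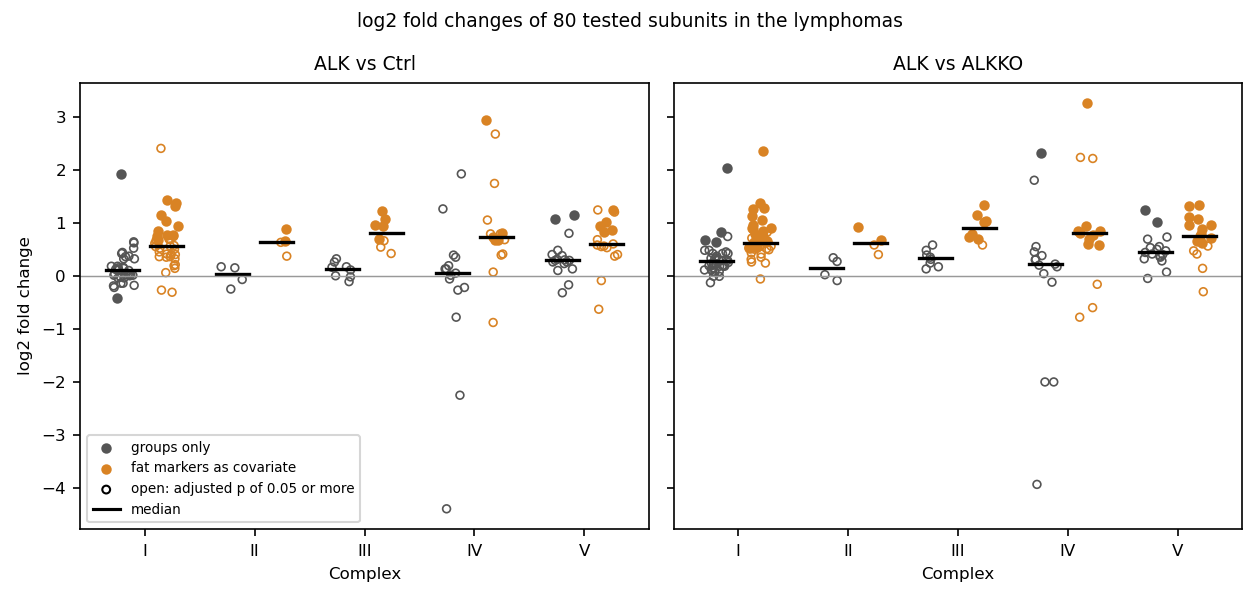
log2 fold changes (y axis) of the 80 tested members by complex (x axis) in ALK against Ctrl and ALK against ALKKO, from the fit with groups only (grey) and with the fat markers as a covariate (orange). Filled points have an adjusted p under 0.05 and bars are medians. The medians over all members are 0.13 and 0.31 with groups only and 0.67 and 0.71 with the covariate.

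The covariate is bounded by the design. The fat markers of ALK replicates 2 and 3, 1.21 and 1.05, lie below the lowest thymus library, 3.04, so the fit extends beyond the thymus range for these lymphomas, and low fat markers and the ALK genotype cannot be fully told apart. Leaving out 1 library at a time, between 5 members (without KO replicate 1, where 1.77% of all tested genes rose) and 36 members (without ALK replicate 1, 10.8%) rose in ALK against Ctrl. In ALK against ALKKO between 13 members (without ALKKO replicate 1, 2.47%) and 52 members (without ALK replicate 1, 11.7%) rose. In both comparisons 0 members fell, and the medians were 0.49 to 0.74 and 0.60 to 0.84. Without KO replicates 2 and 3, 4 members rose and 0 fell in ALK against Ctrl, where 1.97% of all tested genes rose and 4.9% fell, with 28 members at an unadjusted p under 0.05. In ALK against ALKKO 17 rose and 0 fell, where 3.53% rose and 7.75% fell, with 47 members at an unadjusted p under 0.05, and the medians were 0.48 and 0.59.

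Genes that build and regulate the chain were counted from lists of textbook members, to be read against the 14.8% of all tested genes that rose and the 14.7% that fell in ALK against Ctrl. In ALK against Ctrl 5 of 15 complex I assembly factors rose and 1 fell, with 1 of 4 up for complex II, 1 of 6 for complex III, 5 of 21 tested and 1 lower for complex IV, and 1 of 4 for complex V. Nubpl, which delivers iron-sulfur clusters to complex I, was at 9.20, 9.25 and 7.27 CPM in ALK and 2.85, 3.54 and 3.45 in Ctrl (log2 fold change 1.38 ± 0.32, adjusted p = 0.0106). Ndufaf6 had 1.10 ± 0.29 (adjusted p = 0.0178), Sdhaf3 1.21 ± 0.31 (adjusted p = 0.0151) and Uqcc2, an assembly factor of complex III, 1.07 ± 0.27 (adjusted p = 0.0153). Of 75 tested mitochondrial ribosomal proteins 22 rose and 0 fell (32 at an unadjusted p under 0.05), with a median of 0.35 where that of all tested genes was 0.05, and Mrpl52 (1.17 ± 0.22), Mrpl23 (1.10 ± 0.34) and Mrpl19 (1.05 ± 0.17) passed with a log2 fold change above 1. Against ALKKO, where 13.4% of all tested genes rose, 25 of them rose and 0 fell (43 at an unadjusted p under 0.05), among them Mrps28 (1.04 ± 0.22, adjusted p = 0.00682). Of the 16 citric acid cycle genes 1 rose, Suclg2, the GTP-forming subunit of succinyl-CoA ligase, at 61.7, 60.8 and 49.2 CPM in ALK and 15, 16.7 and 22.1 in Ctrl (1.67 ± 0.33, adjusted p = 0.00482). None of the 7 tested subunits encoded by mitochondrial DNA passed in edgeR, with 2 at an unadjusted p under 0.05 and a median of 0.23, nor did any of 4 tested electron carriers, with 0 at an unadjusted p under 0.05. Of 20 regulators 2 rose and 2 fell, with a median of -0.03. Tfb1m, a methyltransferase of the mitochondrial ribosomal RNA, had 1.04 ± 0.35 (adjusted p = 0.0457), and Pprc1, a coactivator of the PGC-1 family, had 0.92 ± 0.24 (adjusted p = 0.0155) against Ctrl and 1.12 ± 0.24 (adjusted p = 0.00714) against ALKKO.

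The difference between ALK against Ctrl and ALKKO against KO was also tested. ALK libraries came from lymphomas and ALKKO libraries from thymus without lymphoma. In this contrast a different action of the oncogene without Dnmt1 cannot be told apart from transformation or cell composition. Of 80 members 1 passed, Ndufa4l2, where 10.3% of all tested genes did. The members had a median of 0.41 in this contrast and 71 of 80 were above 0, with 9 at an unadjusted p under 0.05. The median and share above 0 over all tested genes are not given for this contrast, so these values do not set the members apart. The contrast contains KO replicates 2 and 3, in which the members were high.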

How the data were processed

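Poly(A)-selected RNA of 12 mice was sequenced. The authors trimmed and aligned the reads to mm10 and deposited raw read counts per Ensembl gene for each library. The submitters' processing notes name Trim Galore, FastQC, STAR, Picard 2.19.2, HTSeq and DESeq2. The strand setting and the annotation release are not given in the sources used here. Gene symbols were taken from GENCODE annotation of GRCm38 and promoter sequences from RefSeq (GRCm38.p6).

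Genes passing filterByExpr were fitted with edgeR 4.0.16 (R 4.3.3; TMM, robust quasi-likelihood test, 1 term per group over all 12 libraries), and p-values were adjusted by the Benjamini-Hochberg method over 16052 genes. Passed means an adjusted p under 0.05. The number of all tested genes at an unadjusted p under 0.05 is given for ALK against Ctrl and ALK against ALKKO without covariate. Elsewhere such counts have no number beside them and do not set the members apart. Adjusted p-values in the text are from this test unless DESeq2 (1.42.0) is named, and SE is the log2 fold change divided by the root of the F statistic. The script was tested on simulated counts. Replicates differed by more than sampling noise in all 12 pairs within groups (chi-square per degree of freedom 13.5 to 207). The p-values rest on the spread between 3 mice a group.

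Named were members that passed with a log2 fold change above 1 or below -1, the 2 highest and 2 lowest members of each complex in ALK against Ctrl, core subunits, paralogs with restricted expression and, from the lists of assembly factors and related genes, those that passed with the same size of change. The members, lists and tests were chosen with earlier results of these data known. Alternatives were other scalings and filters, DESeq2, the replicate number as a block, age, only the groups compared, and leaving out each library. The covariate of fat markers, its combination with KO replicates 2 and 3 left out, leaving out these libraries, and the difference of differences were added after the data were seen. 1 member is counted but not reported by name here.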

Additional observations from a re-analysis of the deposited data

Results flagged for a closer look

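Ndufa4l2 differed between ALK against Ctrl and ALKKO against KO. The difference of the 2 log2 fold changes was 2.68 (adjusted p = 0.0496, edgeR, adjusted over all tested genes), a contrast added after the data were seen. The ALK libraries were at 4.90, 5.06 and 3.05 CPM and the Ctrl libraries at 0.951, 0.804 and 1.67, while ALKKO was at 1.39, 0.598 and 1.15 and KO at 1.01, 3.01 and 1.35. ALK lay above Ctrl in 3 of 3 libraries, and ALKKO overlapped with KO. The value of KO replicate 2, the library with the highest B cell markers, enters the contrast, and its part was not tested.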

How the results depend on the processing

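In ALK against Ctrl, 4 members passed in the fit as reported (29.5% of all tested genes), 1 without the filter on low counts (14.3%), 1 with only the groups compared (22.6%), 9 with DESeq2 (38.1%), and 28 with the fat markers as covariate (18.8%). In ALK against ALKKO, 7 members passed in the fit as reported (28.1%), 4 with total counts as the only scaling (25.8%), 2 without the filter (13.5%), 4 with at least 10 counts required in every library (22.6%), 1 with only the groups compared (17%), 11 without KO replicates 2 and 3 (28.2%), 48 with the fat markers as covariate (21.2%) and 17 with both (11.3%). The cause of these shifts was not tested. With the fat markers as covariate the medians moved to 0.67 in ALK against Ctrl and 0.71 in ALK against ALKKO, and to 0.48 and 0.59 with KO replicates 2 and 3 also left out. Without these 2 libraries, which leaves KO with replicate 1, the median was -0.46 in KO against Ctrl and 0.28 in ALKKO against KO. DESeq2 called 1 member in KO against Ctrl. With 1 library left out at a time, the count in ALK against Ctrl ranged from 0 to 7. It was 0 without Ctrl replicate 1 or 2 (16.1% and 18.5% of all tested genes) and 7 without KO replicate 1 (28.3%). In ALK against ALKKO it ranged from 0 without ALKKO replicate 3 (16.8%) to 9 without KO replicate 2 (32.2%). In the other 3 comparisons it was 0 throughout, where at most 0.217% of all tested genes passed.

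No named call changed direction in 24 settings, with Ndufa12 passing in 21 of them in ALK against ALKKO, Ndufa4l2 in 19 in ALK against Ctrl and 20 in ALK against ALKKO, Atp5s in 17 and 16, Atp5g1 in 15 and 17, Ndufs3 in 13 in ALK against Ctrl, and Ndufb2, Ndufc2 and Cox6b2 in 10 each in ALK against ALKKO. Deviations of same-numbered libraries correlated at 0.418 and 0.242 for replicates 1 and 2 in ALKKO against KO. They did so at 0.202 and 0.160 for replicates 1 and 3 in KO against Ctrl, and at most at 0.142 elsewhere. No comparison had every pair above 0.1, and the fit as reported did not pair the samples. Whether same-numbered samples shared more than a number was not tested. With the replicate block 3 members passed in ALK against Ctrl (26% of all tested genes), Ndufs3 being lost, and 7 in ALK against ALKKO (24.6%). Upper-quartile scaling moved the median of all tested genes from 0.049 to -0.055 in ALK against Ctrl and from 0.032 to -0.082 in ALK against ALKKO, with members at 0.024 and 0.199.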
